A study of Mus musculus with 10 samples.

Results

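Mbd3c knockout E14 mouse embryonic stem cells were compared with wild type E14 cells by RNA sequencing. The comparison used 4 of the 10 libraries of the study, 2 from Mbd3c KO cells (columns CA10 and CH9) and 2 from WT cells (columns E141 and E142). Its members are the 38 genes that the authors listed for it, of 8694 gene symbols listed over their 4 mutant comparisons. E14 is a feeder-independent line of pluripotent cells, grown here on gelatin. The Mbd3c KO group carries a CRISPR/Cas9 mutation in intron 2 of Mbd3, and the WT group carries none. The other mutants, Mbd3ab KO, Mbd3abc KO and Mbd3cΔN-ab KO, also had 2 libraries each and were set against the same WT libraries. The libraries of a group are described as biological replicates, but the sources used here do not say whether CA10 and CH9 are different clones. The p-values below set the difference between groups against a spread between libraries that DESeq2 estimates with all genes tested. That spread may therefore be technical.

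Mbd3 is a subunit of NuRD, a chromatin complex that joins nucleosome remodelling by Chd4 to histone deacetylation by Hdac1 and Hdac2. Isoforms a, b and c differ at the N terminus, and isoform c lacks most of the methyl-CpG binding domain that gives the protein its name. Wdr5, which the title of the study ties to the NuRD form of embryonic stem cells, is a core subunit of the COMPASS complexes that methylate lysine 4 of histone H3. The comparison asks which RNAs depend on isoform c.

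Of 10761 genes tested, 38 were called at an adjusted p under 0.05 (0.353%), 34 higher in Mbd3c KO (0.316%) and 4 lower (0.0372%), by DESeq2 in the authors' deposited table. The other mutants had more calls by the same rule, with 442 of 13201 genes (3.35%) in Mbd3ab KO, 5989 of 14429 (41.5%) in Mbd3cΔN-ab KO and 8132 of 15622 (52.1%) in Mbd3abc KO. Among the 34 genes higher in Mbd3c KO, 10 were histone genes (29.4%), 12 were non-coding RNAs, nearly all of them small (35.3%), and 12 were other protein-coding genes (35.3%). The 4 lower genes, Socs2, Enox1, Bmp4 and Peg3, were all protein-coding. Because a gene enters the table through its difference in this same comparison, the levels that follow describe the listed genes and are not a second test of them. A gene that is not listed has no value here, and its absence is not evidence that it was equal in both groups.

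Levels are given as normalized reads, the reads of a gene divided by the size factor of its library. Relative to WT library E141, the number of reads was 1.02 times in CA10, 0.485 times in CH9 and 1.59 times in E142, so CH9 is the shallowest of the 4 and E142 the deepest. Absolute totals are not known, since the table holds a small part of each library. Changes are given as the log2 ratio of the group means, Mbd3c KO over WT. Its median was 2.08 over the 38 genes, and in every listed gene the 2 Mbd3c KO libraries lay apart from the 2 WT libraries. Among the 34 higher genes the lower Mbd3c KO library was 2.57 to 7.93 times the higher WT library. The genes were called on these same libraries, which largely fixes this separation, and it is no support for the calls. In what share of all genes tested the groups lay apart is not known.

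Mbd3 itself was not listed in Mbd3c KO, so the mutation could not be checked through its RNA. Reads summed over the gene would not separate isoform c from isoforms a and b in any case. None of 16 NuRD genes and none of 15 Wdr5 and COMPASS genes was listed, but with 0.353% of all genes tested called, lists of this size would hold no call at the background share, and nothing is read from these counts. Each of 3 further lists held 1 listed gene, lower in each case: Bmp4 of 20 genes of BMP signalling, Socs2 of 18 genes of LIF, Jak and Socs signalling, and Peg3 of 25 imprinted genes. These lists were chosen with earlier results of these data known, so nothing is read from their counts either. Of the markers of cell types, 0 of 12 pluripotency genes were listed, 0 of 8 for primitive endoderm, 0 of 3 for mesoderm, 0 of 4 for neuroectoderm and 0 of 6 for fibroblasts. Of the 8 trophectoderm markers, the keratin gene Krt18 was listed as higher.

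Levels of cell type markers in the WT cells can be read from the Mbd3abc KO table, which lists 9 of the 12 pluripotency genes. There Pou5f1, the central pluripotency factor, had 10868 and 11649 normalized reads in the WT libraries, Esrrb had 12203 and 11747, and Sox2 had 4011 and 3873. Tfcp2l1 had 11805 and 12226, Tdgf1 had 6573 and 6560, and Klf2 had 5106 and 5086. Utf1 had 4523 and 4665, and Klf4 had 2573 and 2263. Dppa3, on the same list, was much lower, with 192 and 233. Markers of other cell types in that table did not all lie low. The mesoderm marker Mixl1 had 2.58 and 0, the fibroblast collagen Col1a1 had 48.9 and 48.1, and the neuroectoderm marker Pax6 had 19.3 and 17.1. In contrast, the primitive endoderm marker Lama1 had 3580 and 3125, Sparc had 1488 and 1410, and Vim, which is on the fibroblast list, had 2047 and 1838. Dab2, also on the primitive endoderm list, had 23.2 and 10.6, and Thy1, on the fibroblast list, had 179 and 161. Of neuroectoderm, Nes had 170 and 171 and Sox21 had 72.1 and 72.6. Of trophectoderm, Eomes had 78.5 and 61.2, Krt8 had 81.1 and 126, and Krt18 had 107 and 138. Markers of the same cell type thus differed in level, and no other cell type is read from them. Except for Krt18, the Mbd3c KO libraries have no value for these genes, so their marker levels could not be read in the same way.

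In bulk RNA, fewer cells with a transcript and less of it in each cell cannot be told apart. The genes lower in Mbd3c KO encode a cytokine signalling inhibitor, a cell surface oxidase, a growth factor and an imprinted zinc finger protein, and each was 3.46- to 4.03-fold lower. Socs2, which restrains signalling through Jak kinases (chr10:95411490-95416857, minus strand), had 108 and 98.1 normalized reads in the Mbd3c KO libraries CA10 and CH9, against 421 and 408 in the WT libraries E141 and E142. Its mean was 103 ± 6.70 in Mbd3c KO and 414 ± 9.22 in WT (SD, n = 2 each), a log2 ratio of -2.01, the lowest of the 38 genes. Both knockout libraries lay close together, as did both WT libraries. In the authors' deposited table its shrunken log2 fold change from DESeq2 was -1.64 ± 0.35 (SE), with adjusted p = 0.00224.

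Enox1, which encodes an NADH oxidase of the cell surface (chr14:77156763-77721763, plus strand), had 124 and 153 normalized reads in Mbd3c KO, against 543 and 523 in WT. Bmp4, a secreted growth factor of the TGF-beta superfamily (chr14:46383520-46390599, minus strand), had 85.4 and 73.6 in Mbd3c KO, against 306 and 304 in WT. In both genes the Mbd3c KO libraries were alike, and the log2 ratio was -1.94. Peg3, an imprinted gene expressed from the paternal allele (chr7:6705960-6730419, minus strand), had 196 and 129 normalized reads in Mbd3c KO, against 552 and 572 in WT, and its log2 ratio was -1.79. Its knockout libraries differed more from each other than those of the other lower genes, yet both were well below either WT library. In the authors' deposited table the DESeq2 adjusted p was 0.0031 for Enox1, 0.00642 for Bmp4 and 0.0342 for Peg3.

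The 12 protein-coding genes that were higher in Mbd3c KO and are not histones had log2 ratios of 1.499 to 3.68 and came from unlike families. Atp2b2, a plasma membrane pump that exports calcium (chr6:113745668-113891376, minus strand), had 259 and 270 normalized reads in Mbd3c KO, against 32.6 and 30.2 in WT. It averaged 264 ± 7.85 in Mbd3c KO and 31.4 ± 1.71 in WT (SD, n = 2 each), 8.42-fold higher. Its lower knockout library was 7.93 times its higher WT library, the widest gap among the 34 higher genes. In the authors' deposited table it had the smallest DESeq2 adjusted p of the comparison, 3.66e-07, with a log2 fold change of 2.43 ± 0.37 (SE).

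Fos, an immediate early gene whose protein forms the AP-1 transcription factor with Jun proteins (chr12:85473901-85477270, plus strand), had 218 and 292 normalized reads in Mbd3c KO, against 43.5 and 49.3 in WT. Its log2 ratio was 2.46, and in the authors' deposited table its DESeq2 adjusted p was 0.00076. Gzmm, a granzyme first known from cytotoxic lymphocytes (chr10:79689020-79695260, plus strand), had 108 and 127 in Mbd3c KO, against 11.8 and 19.1 in WT. Lamb3, a chain of the basement membrane protein laminin 332 in epithelia (chr1:193301994-193343878, plus strand), had 85.4 and 116 in Mbd3c KO, against 10.9 and 16.8 in WT. Fos, Gzmm and Lamb3 were low in both WT libraries and 5.503-, 7.60- and 7.29-fold higher in Mbd3c KO, and no knockout library came near a WT library. The WT levels rest on 13 and 33 reads for Gzmm and on 12 and 29 for Lamb3, so these 2 folds are imprecise. The DESeq2 adjusted p in the authors' deposited table was 0.0011 for Gzmm and 0.0031 for Lamb3.

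The largest ratios among the protein-coding genes belonged to Nfam1 and Klhdc7a, and they were the least even. Nfam1, an immune receptor gene that signals to the transcription factor NFAT (chr15:82996736-83023138, minus strand), had 67.3 and 34.7 normalized reads in Mbd3c KO, against 2.71 and 5.22 in WT. These rest on 82 and 17 reads in Mbd3c KO and on 3 and 9 reads in WT, so the 12.9-fold difference is imprecise. Klhdc7a, a gene of the kelch repeat family (chr4:139962173-139968026, minus strand), had 140 and 509 normalized reads in Mbd3c KO, against 34.4 and 26.1 in WT. Library CH9 held 3.65 times the level of CA10, and the log2 ratio of 3.42 became 2.21 without CH9 and 4.07 without CA10. The DESeq2 adjusted p in the authors' deposited table was 0.0114 for Nfam1 and 0.00425 for Klhdc7a.

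Another 6 protein-coding genes were 2.83- to 3.54-fold higher, with knockout libraries close to each other in each case. Aldh1l1, a folate enzyme of the cytosol (chr6:90550848-90599171, plus strand), had 345 and 388 normalized reads in Mbd3c KO, against 88.7 and 118 in WT. Traf3ip2, an adaptor of the interleukin 17 receptor (chr10:39612934-39655307, plus strand), had 319 and 284 in Mbd3c KO, against 82.4 and 93.4 in WT. Krt18, a keratin of simple epithelia (chr15:102028216-102032026, plus strand), had 307 and 286 in Mbd3c KO, against 75.1 and 98.1 in WT. In all 3 genes both knockout libraries were well above both WT libraries. As a ratio, the WT libraries of Aldh1l1 and Krt18 differed from each other more than their knockout libraries did. Igfbp4, a secreted protein that binds insulin-like growth factors (chr11:99041260-99052643, plus strand), had 537 and 470 in Mbd3c KO, against 163 and 173 in WT. Sohlh2, a basic helix-loop-helix factor of the germline (chr3:55182044-55209957, plus strand), had 465 and 531 in Mbd3c KO, against 181 and 151 in WT. Atp9a, a P4-type ATPase of endosomal membranes (chr2:168634438-168741800, minus strand), had 962 and 885 in Mbd3c KO, against 325 and 328 in WT. The WT libraries of Igfbp4 and Atp9a were nearly equal. The DESeq2 adjusted p in the authors' deposited table ran from 0.0188 for Traf3ip2 to 0.0472 for Sohlh2, the weakest call of all 38.

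**Figure D1:**
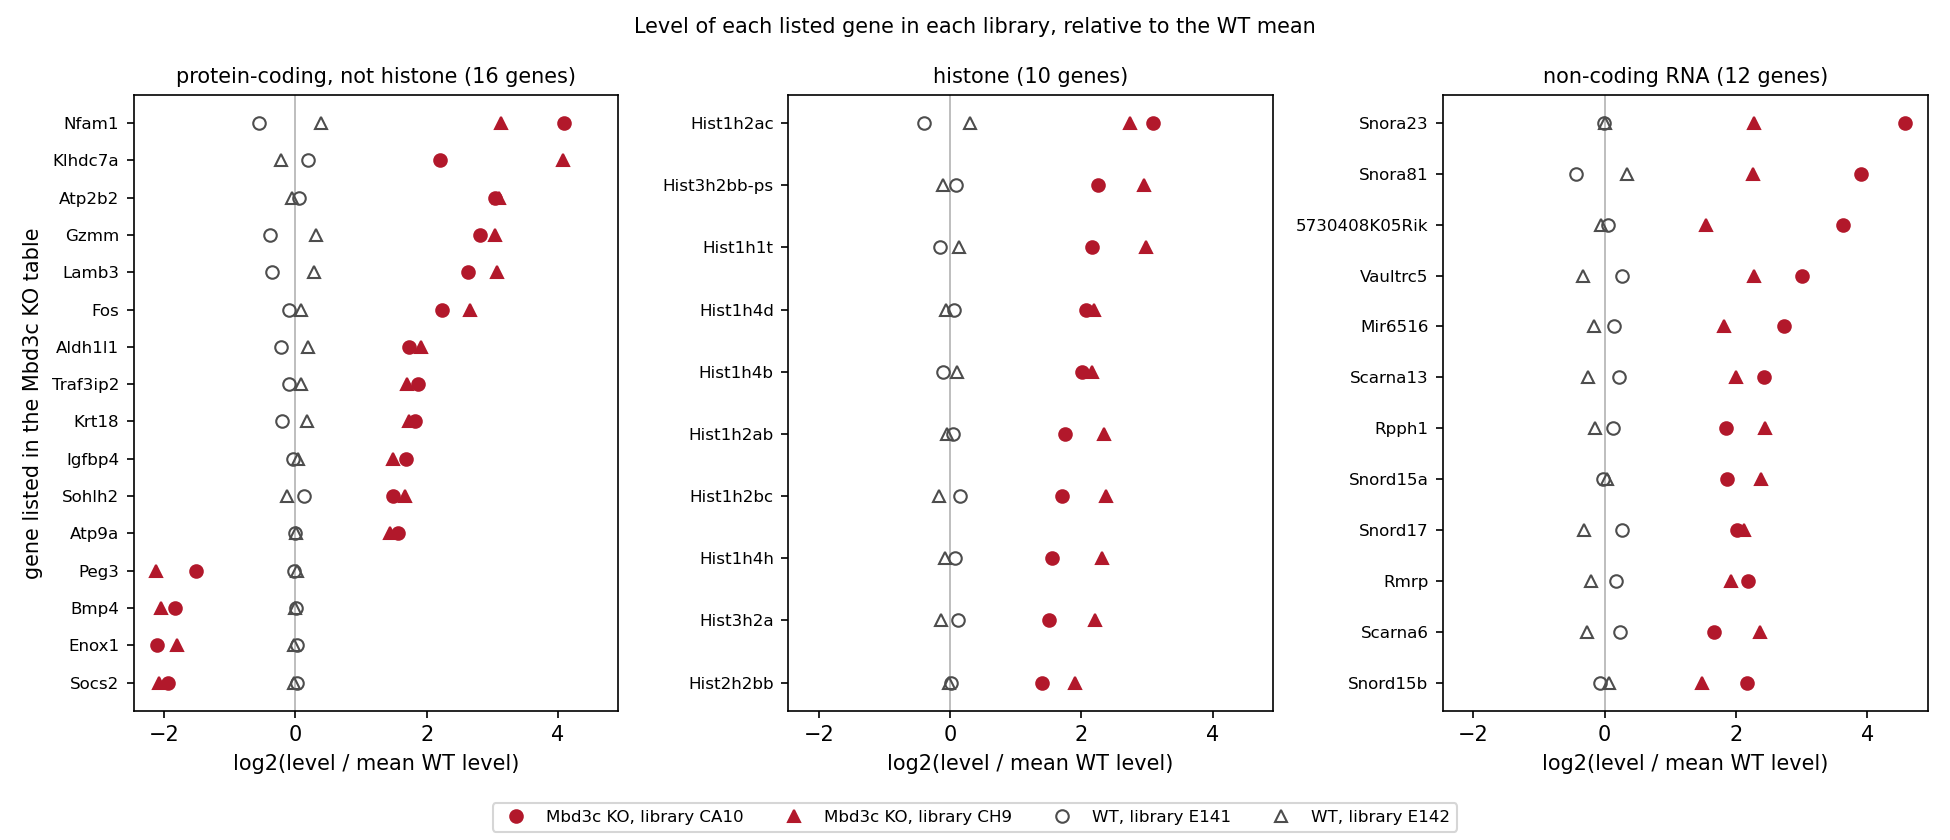
Level of each of the 38 listed genes in each library, on a horizontal axis of log2 (level / mean WT level), with 1 panel for each class of gene. Filled red symbols are the Mbd3c KO libraries and open grey symbols the WT libraries; in every gene the filled symbols lie apart from the open ones, to the left for Socs2, Enox1, Bmp4 and Peg3 and to the right for the other 34 genes.

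All 10 listed histone genes were higher in Mbd3c KO, with log2 ratios between 1.67 and 2.92 and a median of 2.08, the same as over all 38 genes. They make up 10 of 70 genes with a Hist symbol in the GENCODE M21 annotation. Over all genes tested, 0.316% were called higher. How many of the 70 had been tested is not known, so no rate is read from this count. Of them 9 encode histone H4 (Hist1h4b, Hist1h4d, Hist1h4h), H2A (Hist1h2ab, Hist1h2ac, Hist3h2a), H2B (Hist1h2bc, Hist2h2bb) and the linker histone variant of the testis (Hist1h1t). Hist3h2bb-ps is a pseudogene of the H2B family by its symbol, although its deposited gene type is protein-coding. Most histone genes of these clusters are expressed with DNA replication, and their messages end in a stem-loop in place of a poly(A) tail. The stem-loop is bound by the protein SLBP and directs cleavage of the message. The stretch that holds it is shown for the listed genes in which it was found, with the 16 bases of the stem-loop in capitals.
Hist1h4b: tacaaaaGGTCCTTTTCAGGACCactcact
Hist1h4d: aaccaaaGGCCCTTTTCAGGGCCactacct
Hist1h4h: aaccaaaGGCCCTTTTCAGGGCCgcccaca
Hist1h2ab: aaacaaaGGCTCTTTTCAGAGCCacccaca
Hist3h2a: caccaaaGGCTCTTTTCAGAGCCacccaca
Hist1h2ac: acccaaaGGCTCTTTTCAGAGCCcccactt
Hist1h1t: acccaaaGGCTCTTTTAAGAGCCacttaca

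These are 30-base stretches of GENCODE M21 transcripts (GRCm38, the assembly called mm10), sense strand, 5′ to 3′. The stretch was found by searching the first 150 bases after the stop codon, on the sense strand, for GG, any 3 bases, TT, any base, T, any base, A, any 3 bases and CC, in that order and without gaps. It was the sole motif searched there. It was present in 7 of the 9 listed histone genes with a coding model, and all 7 had 6 paired bases in the stem. In Hist1h2bc no match lay in the 150 bases, and the annotated Hist2h2bb model ends at its stop codon, so that 0 bases could be searched. Among other protein-coding genes with annotated sequence there, 77 of 19348 (0.398%) held the motif, against 46 of 67 Hist genes (68.7%). The match describes the class of gene and says nothing of how its RNA came to be higher.

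Hist1h2ac had the largest ratio of the histone genes, with 604 and 478 normalized reads in Mbd3c KO, against 54.3 and 88.2 in WT. It averaged 541 ± 89.2 in Mbd3c KO and 71.3 ± 23.96 in WT (SD, n = 2 each), 7.59-fold higher, and its DESeq2 adjusted p in the authors' deposited table was 2.19e-05. Hist3h2bb-ps had 56.6 and 91.9 in Mbd3c KO, against 12.7 and 11.02 in WT. Neither gene overlapped between groups, and per kilobase of transcript Hist3h2bb-ps had the lowest level of the 10 in both groups. Hist1h1t had 294 and 515 normalized reads in Mbd3c KO, against 58.8 and 72.0 in WT, a log2 ratio of 2.63. This testis linker histone differed between the knockout libraries more than Hist1h2ac did. Hist1h4d had 10812 and 11731 in Mbd3c KO, against 2684 and 2462 in WT, and Hist2h2bb had 11178 and 15860 in Mbd3c KO, against 4288 and 4212 in WT. Per kilobase these had the highest histone levels in both groups, and they were 4.38- and 3.18-fold higher, with log2 ratios of 2.13 and 1.67. In the authors' deposited table the DESeq2 adjusted p was 4.18e-05 for Hist1h4d and 0.0229 for Hist2h2bb.

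The knockout libraries differed from each other in a like way across the histone genes. In 9 of the 10, library CH9 held more than CA10, by a median factor of 1.55 over the 10 genes, and Hist1h2ac was the exception. Summed over the 10 genes, the level was 41307 in CA10 and 57926 in CH9, against 13556 in E141 and 12515 in E142. Both knockout sums exceed both WT sums by more than either pair differs within itself. The choice of these genes by this same comparison largely fixes that order, and it is no support for the calls. CH9 is also the shallowest library, with 0.485 times the reads of E141, and the part of depth in this order was not tested. Hist3h2a shares its start and strand with Trim17, and Hist2h2bb overlaps the non-coding gene Gm42743 on its strand, so reads of these partners may be included.

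The listed histone genes lie on 3 chromosomes, 7 of them in the cluster on chromosome 13, and 4 of them form head-to-head pairs. Hist1h2ac, on the minus strand, and Hist1h2bc, on the plus strand, start 240 bases apart on chromosome 13. Hist3h2bb-ps, on the minus strand, and Hist3h2a, on the plus strand, start 173 bases apart on chromosome 11. Both members of each pair were higher in Mbd3c KO: Hist1h2bc had 2169 and 3451 normalized reads in Mbd3c KO, against 738 and 597 in WT, and Hist3h2a had 6491 and 10508 in Mbd3c KO, against 2494 and 2073 in WT. The promoter between the members of each pair is shown because a pair shares it, as the RefSeq sequence of GRCm38.p6 around the start of Hist1h2ac and of Hist3h2a. The Hist1h2ac window is at chr13:23683910-23684209, minus strand, and the Hist3h2a window at chr11:58954435-58954734, plus strand. Capitals mark the motifs of the next paragraph.
Hist1h2ac promoter: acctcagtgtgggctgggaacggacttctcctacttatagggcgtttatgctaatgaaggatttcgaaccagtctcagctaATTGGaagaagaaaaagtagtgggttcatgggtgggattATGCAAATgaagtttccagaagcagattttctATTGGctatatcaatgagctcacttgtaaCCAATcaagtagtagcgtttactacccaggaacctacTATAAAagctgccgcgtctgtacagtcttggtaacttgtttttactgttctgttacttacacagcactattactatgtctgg
Hist3h2a promoter: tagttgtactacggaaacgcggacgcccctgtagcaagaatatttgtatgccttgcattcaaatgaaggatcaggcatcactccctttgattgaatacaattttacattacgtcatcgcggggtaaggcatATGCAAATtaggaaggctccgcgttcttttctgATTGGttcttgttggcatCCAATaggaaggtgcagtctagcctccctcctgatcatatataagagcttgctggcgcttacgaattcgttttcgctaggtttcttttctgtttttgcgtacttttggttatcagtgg

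The motifs searched on both strands were the octamer ATTTGCAT, known as the site of Oct factors in H2B promoters, the CCAAT box CCAAT and the TATA box TATAAA, and no match overlapped another in these windows. The octamer was present in 4 of the 8 listed histone promoters in the RefSeq table and in 1.74% of all 32851 promoters there. CCAAT was present in 6 of the 8, against 37.4% of all promoters, and TATAAA in 3 of the 8, against 13.6%. The share among histone promoters that are not listed was not computed. These counts therefore cannot tell a trait of the listed genes from a trait of histone genes as a class. The Hist1h2ac window held 1 octamer, 3 CCAAT boxes and 1 TATA box, and the Hist3h2a window held 1 octamer and 2 CCAAT boxes, with no TATAAA. These are letters found in a window, not sites of binding, and 23 of the 38 listed genes were matched in that table.

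All 12 listed non-coding RNAs were higher in Mbd3c KO, with log2 ratios between 1.86 and 3.85 and a median of 2.20. They comprise the RNA subunits of 2 related ribonucleases (Rmrp and Rpph1), C/D box guides of RNA methylation (Snord15a, Snord15b and Snord17), H/ACA guides of pseudouridylation (Snora23 and Snora81) and small Cajal body RNAs (Scarna6 and Scarna13). The others are the microRNA gene Mir6516, the vault RNA gene Vaultrc5, named for the vault particle, and the transcript 5730408K05Rik. The listed Snora, Snord and Scarna genes are 7 of 150 such symbols in GENCODE M21, and 0.316% of all genes tested were called higher. How many of the 150 had been tested is not known either, so no rate is read from this count.

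Rpph1, the RNA of ribonuclease P, which trims the leader of tRNA precursors (chr14:50807447-50807771, minus strand), had 120246 and 181459 normalized reads in Mbd3c KO, against 36484 and 30232 in WT. Rmrp, the RNA of ribonuclease MRP, which cleaves the precursor of ribosomal RNA (chr4:43492785-43493059, minus strand), had 130794 and 110057 in Mbd3c KO, against 32676 and 25127 in WT. They were 4.52- and 4.17-fold higher, and per kilobase they had the highest levels in the list. In the authors' deposited table the DESeq2 adjusted p was 0.0011 for Rpph1 and 0.000804 for Rmrp. Rpph1 overlaps an exon of Ccnb1ip1 on the same strand, so reads of both cannot be told apart there. Rmrp overlaps Ccdc107 on the opposite strand, and the counting was strand-specific per the file headers.

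Snora23 had the largest ratio of all 38 genes and the least even knockout libraries. It had 1570 and 319 normalized reads in Mbd3c KO, against 65.2 and 66.2 in WT, and averaged 945 ± 885 in Mbd3c KO and 65.7 ± 0.684 in WT (SD, n = 2 each). The log2 ratio of 3.85 became 2.28 without CA10 and 4.58 without CH9. Snora81 had 383 and 123 in Mbd3c KO, against 19.01 and 32.5 in WT, and 5730408K05Rik had 724 and 170 in Mbd3c KO, against 60.7 and 56.3 in WT. The log2 ratio of Snora81 was 3.30, with 2.25 without CA10 and 3.90 without CH9, and that of 5730408K05Rik was 2.93, with 1.54 without CA10 and 3.63 without CH9. In all 3 of these RNAs library CA10 held more than 3 times the level of CH9, although CH9 still exceeded both WT libraries. Vaultrc5 had 169 and 102 normalized reads in Mbd3c KO, against 25.4 and 16.8 in WT, a log2 ratio of 2.68. In the authors' deposited table the DESeq2 adjusted p was 0.00224 for Snora23, 0.00504 for Snora81, 0.0415 for 5730408K05Rik and 0.00437 for Vaultrc5.

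The other 6 non-coding RNAs had log2 ratios from 1.86 in Snord15b to 2.35 in Mir6516. Snord15a and Snord15b are 2 copies of the U15 guide in one host gene, Rps3, and their sequences show how far they can be told apart. They are shown with Snora23, the RNA with the largest ratio, from GENCODE M21 (GRCm38). In Snord15a (chr7:99482785-99482932, minus strand) and Snord15b (chr7:99479563-99479707, minus strand) the capitals mark the first TGATGA and the last CTGA. These are the letters of a C box and a D box, found as strings, and the boxes themselves were not mapped. In Snora23 (chr7:110046364-110046547, plus strand) the capitals mark the ACA near the 3′ end.
Snord15a: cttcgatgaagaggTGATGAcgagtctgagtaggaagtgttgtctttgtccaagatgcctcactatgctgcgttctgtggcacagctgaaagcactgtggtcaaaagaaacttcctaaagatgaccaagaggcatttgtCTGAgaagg
Snord15b: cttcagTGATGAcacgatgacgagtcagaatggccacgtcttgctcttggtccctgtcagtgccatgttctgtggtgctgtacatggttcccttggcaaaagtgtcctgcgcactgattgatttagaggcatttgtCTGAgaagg
Snora23: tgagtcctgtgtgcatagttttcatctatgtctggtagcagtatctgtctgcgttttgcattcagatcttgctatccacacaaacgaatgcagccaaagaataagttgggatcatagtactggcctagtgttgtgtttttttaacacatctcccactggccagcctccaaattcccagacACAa

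Aligned over their whole length, the Snord15 copies were identical at 107 of 162 columns (66.0%), and their last 21 bases were the same. Reads confined to that end could be counted to either copy. Snord15a had 238 and 343 normalized reads in Mbd3c KO, against 64.3 and 67.3 in WT, and Snord15b had 423 and 264 in Mbd3c KO, against 89.6 and 99.2 in WT. CH9 was the higher knockout library for Snord15a and CA10 for Snord15b. Rps3, which encodes a ribosomal protein and hosts both copies, was not listed in Mbd3c KO, and neither were Atg16l1, Snx5, Eif4a2 or Ipo7, the host genes of Scarna6, Snord17, Snora81 and Snora23. Reads of Snord15b and Snora81 may include those of the host messages, whose annotated exons overlap them on the same strand.

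The Mir6516 row does not measure a mature microRNA. Its mature sequences from RefSeq (GRCm38.p6) are shown because the gene carries a microRNA name; capitals mark the seed, bases 2 to 8, and the arms do not share it.
mmu-miR-6516-5p: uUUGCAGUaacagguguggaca
mmu-miR-6516-3p: uCAUGUAUgauacugcaaacag

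The gene (chr11:117077348-117077457, plus strand) lies within Snhg20 and overlaps the small Cajal body RNA gene Gm26083 on the same strand, at chr11:117077243-117077435. Reads do not separate these overlapping RNAs, so the 1135 and 601 normalized reads in Mbd3c KO, against 188 and 153 in WT, belong to the stretch and not to either arm. In the same way 5730408K05Rik contains Snora57 and overlaps Mir5136 on its own strand, and Scarna13 contains Mir3069 and lies in Snhg10.

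The knockout libraries differed more from each other than the WT libraries did. Over the 38 genes the higher library of the pair held a median of 1.39 times the lower in Mbd3c KO (at most 4.93 times) and 1.18 times in WT (at most 1.93 times). The difference followed the class of gene: CH9 was the higher library in 9 of 10 histone genes, while CA10 was the higher in 8 of 12 non-coding RNAs, by a median factor of 1.48. Among the 16 other protein-coding genes each was the higher in 8, and the median ratio of CA10 to CH9 was 1.02. These counts describe 2 libraries and were not tested. Summed over the non-coding RNAs, the level was 258619 in CA10 and 296693 in CH9, against 70538 in E141 and 56441 in E142, a sum that Rmrp and Rpph1 dominate.

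**Figure D2:**
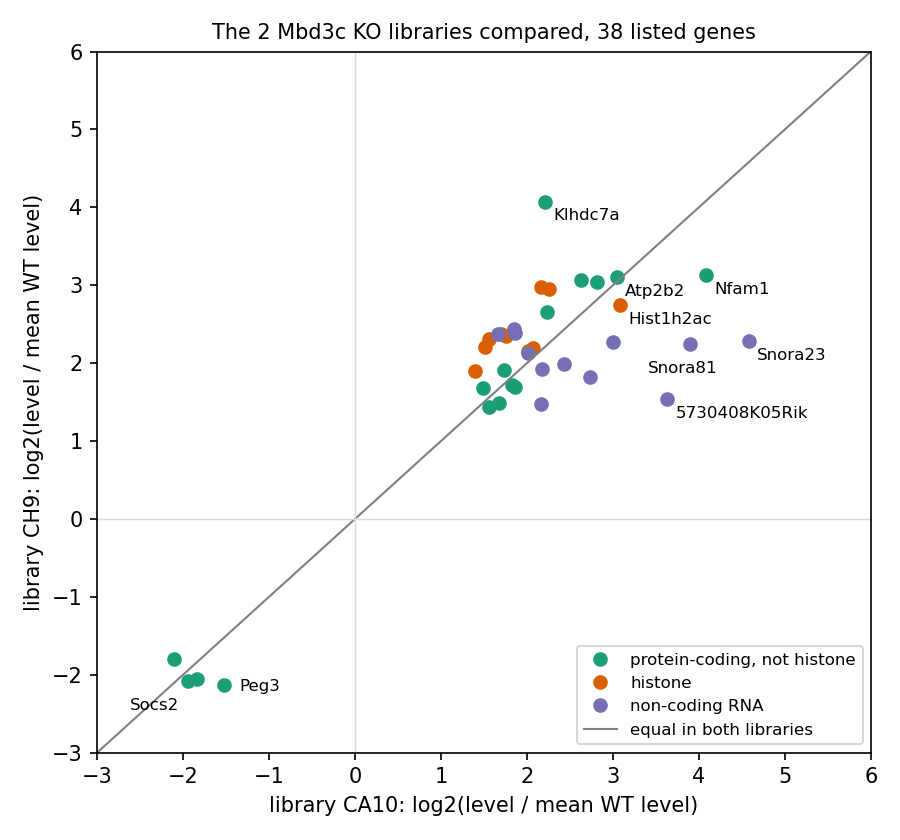
The 38 genes by their level in library CA10 (horizontal axis) and in library CH9 (vertical axis), each as log2 (level / mean WT level); the line marks equal levels and colours mark the class of gene. Most histone genes lie above the line, and Snora23, Snora81 and 5730408K05Rik lie far below it.

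Per kilobase of counted transcript, levels ran from 394 to 465595 normalized reads in the non-coding RNAs of Mbd3c KO, from 160 to 30882 in its histone genes and from 13.4 to 264 in its other protein-coding genes. Rpph1 and Rmrp were the highest of the 38 in both groups. Rpph1 had 465595 normalized reads per kilobase in Mbd3c KO and 102956 in WT, and Rmrp had 439510 in Mbd3c KO and 105481 in WT. Hist1h4d had 30882 per kilobase in Mbd3c KO and 7050 in WT. Among the other protein-coding genes Atp9a was the highest in Mbd3c KO, with 264 per kilobase in Mbd3c KO and 93.4 in WT, whereas in WT the highest was Socs2, with 46.4 in Mbd3c KO and 187 in WT. Nfam1, the lowest of them in both groups, had 13.4 in Mbd3c KO and 1.04 in WT. The classes also differ in length: the counted transcripts spanned 109 to 383 bases in the non-coding RNAs, 365 to 732 in the histone genes and 1279 to 6883 in the other protein-coding genes. Ribosomal RNA had been removed from the total RNA with kits of 2 makers. The labels do not tie a maker to a library, so its part in the levels of short and non-polyadenylated RNAs was not tested.

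**Figure D3:**
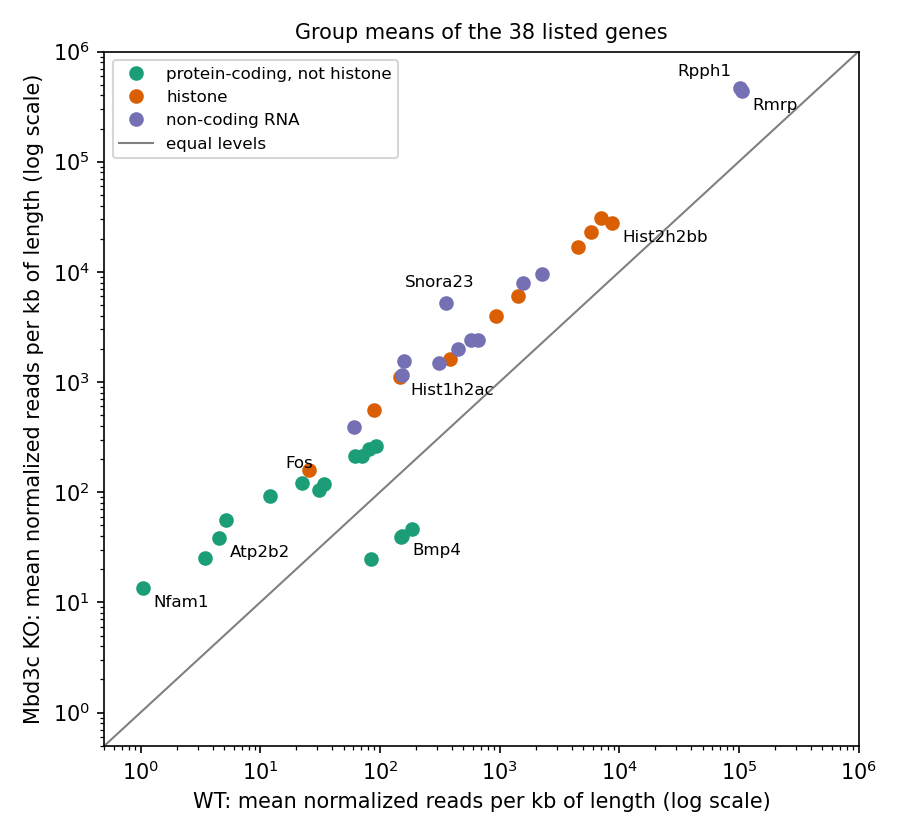
Mean level of each listed gene in Mbd3c KO (vertical axis) against WT (horizontal axis), in normalized reads per kilobase on log axes, with colours for the class of gene and a line for equal levels. Rpph1 and Rmrp lie at the top right, 4.52- and 4.17-fold above the line, and the 4 lower genes lie below the line of equal levels.

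Of the 38 genes, 17 were listed in Mbd3c KO alone, 11 in 1 other mutant table, 5 in 2 others and 5 in all 4 tables. The Mbd3abc KO table called 19 of them (50%, against 52.1% of all genes tested there), while 10 were called in Mbd3cΔN-ab KO (26.3%, against 41.5%) and 7 in Mbd3ab KO (18.4%, against 3.35%). Every mutant was compared with the same 2 WT libraries and each table was normalized separately, so the tables are not independent and are given side by side without a test. The 5 genes in all 4 tables were Peg3, Sohlh2, Aldh1l1, Lamb3 and Klhdc7a, and each had the same direction throughout. Peg3 was 3.46-fold lower in Mbd3c KO, 2.69-fold lower in Mbd3ab KO, 3.16-fold lower in Mbd3abc KO and 1.88-fold lower in Mbd3cΔN-ab KO. Sohlh2 was 2.997-fold higher in Mbd3c KO, 4.46-fold in Mbd3ab KO, 7.60-fold in Mbd3abc KO and 5.95-fold in Mbd3cΔN-ab KO. Klhdc7a was 10.7-fold higher in Mbd3c KO, with 6.53-fold in Mbd3ab KO, 6.30-fold in Mbd3abc KO and 6.26-fold in Mbd3cΔN-ab KO. Its 2 libraries differed 3.65-fold in Mbd3c KO and 2.68-, 2.14- and 2.56-fold in these other mutants, so no order of the mutants is read from it. The imprinted gene was thus low, and the germline and kelch genes high, in every mutant, each against the same WT libraries. Lamb3 was 7.29-fold higher in Mbd3c KO, with 7.55-fold in Mbd3ab KO and 5.09-fold in Mbd3abc KO, whose libraries differed 2.14- and 2.03-fold. The Mbd3cΔN-ab KO table lists another transcript of it. Aldh1l1 was 3.54-fold higher in Mbd3c KO, with 3.09-fold in Mbd3ab KO, 1.74-fold in Mbd3abc KO and 2.34-fold in Mbd3cΔN-ab KO.

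Of the genes in 2 or 3 tables, Atp2b2 was 8.42-fold higher in Mbd3c KO and 5.81-fold higher in Mbd3cΔN-ab KO. Its Mbd3cΔN-ab KO libraries were uneven, with 367 and 124 normalized reads. Snora23 was 14.4-fold higher in Mbd3c KO, 5.29-fold in Mbd3abc KO and 3.10-fold in Mbd3cΔN-ab KO, and Snora81 was 9.82-fold higher in Mbd3c KO and 5.14-fold in Mbd3abc KO. Both Mbd3c KO values rest on the high level in CA10, so no order of the mutants is read from them. Enox1 was 3.85-fold lower in Mbd3c KO and 4.08-fold lower in Mbd3abc KO, where its libraries were uneven, with 49.3 and 321 normalized reads in Mbd3abc KO, against 772 and 736 in WT. By the lower of these libraries alone it was 15.3-fold lower, and by the higher 2.35-fold lower. Lamb3 in Mbd3cΔN-ab KO was also uneven, with 174 and 33.0 in Mbd3cΔN-ab KO, against 14.7 and 22.6 in WT. Some listed genes went the other way in another mutant. Bmp4 was 3.84-fold lower in Mbd3c KO, whereas in the Mbd3abc KO table it had 590 and 643 normalized reads in Mbd3abc KO, against 435 and 427 in WT. Igfbp4 was 2.997-fold higher in Mbd3c KO, whereas it had 72.5 and 80.1 in Mbd3abc KO, against 232 and 243 in WT. The histone genes Hist2h2bb, Hist3h2a and Hist1h2ab and the RNA Rpph1 were also higher in Mbd3c KO and lower in Mbd3abc KO.

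**Figure D4:**
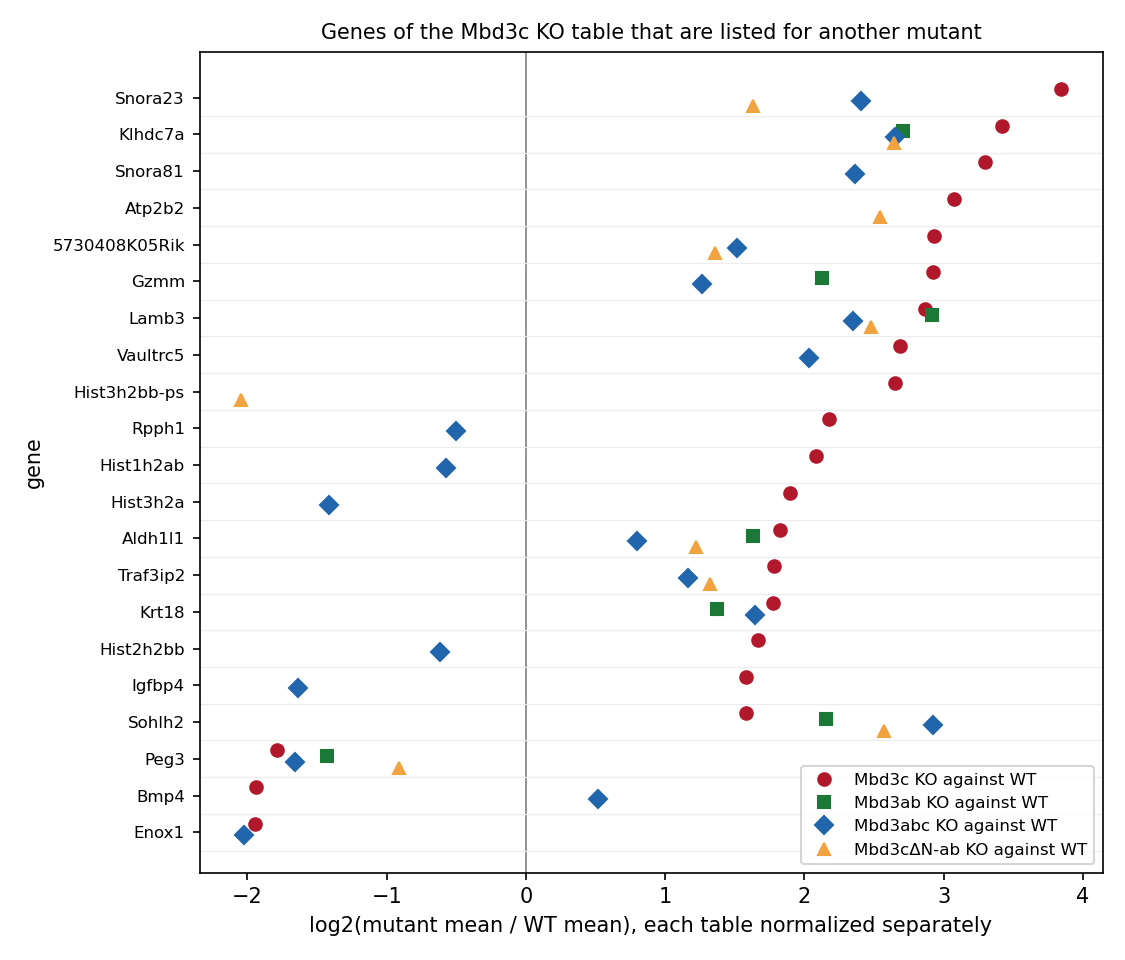
Listed genes that also appear in the table of another mutant, by the log2 ratio of group means, mutant over WT, on the horizontal axis, with 1 symbol for each mutant. Peg3 is left of 0 and Sohlh2, Aldh1l1, Lamb3 and Klhdc7a are right of 0 in all 4 mutants, while Bmp4 and Igfbp4 change side between Mbd3c KO and Mbd3abc KO.

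When the 38 listed genes were refitted alone, with the spread estimated from them in place of all genes tested, DESeq2 called 26 and edgeR and limma called 0 after adjustment over all genes tested. An unadjusted p under 0.05 was found for all 38 with every tool, which the choice of the genes by this comparison largely fixes and which is no support for the calls. The part of the tool and that of the smaller gene set in these counts cannot be told apart. The 12 genes that the DESeq2 refit did not call were 8 of the 12 higher protein-coding genes (Aldh1l1, Gzmm, Igfbp4, Krt18, Lamb3, Nfam1, Sohlh2 and Traf3ip2), Bmp4, Hist3h2bb-ps, Snord15b and Vaultrc5. The log2 ratio of all 38 genes kept its sign without any 1 library. This was fixed in advance, because the groups overlap in no listed gene, and it is no support for the calls.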

How the data were processed

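Total RNA, depleted of ribosomal RNA, was made into strand-specific libraries per the labels' protocols. TopHat2, HOMER and DESeq2 and the build mm10 are named in the submitters' processing notes; no versions were stated for them. HOMER counted reads over exons, set to the minus strand and with 1 row per gene, per the file headers. The authors deposited a read column for each library, a signal scaled to equal totals. Their deposited log2 fold changes come with an SE. The deposited p-values, raw and adjusted, are those of DESeq2 per the file headers. The deposited score column, the Wald statistic, was not used. Counts had been planned for; since the columns hold scaled values, the deposited DESeq2 calls were kept as the main test.

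Every value was a whole multiple of a step of its library (100% within 0.02), so reads were recovered by division. This rests on 38 genes. Size factors (1.22 for CA10, 0.489 for CH9, 1.10 for E141 and 1.72 for E142) came from the deposited mean, which they matched to within 0.00535%. How many genes had been tested was recovered from p, its rank and its adjusted value. Refits of the listed genes used DESeq2 1.42.0, edgeR 4.0.16 and limma 3.58.1 in R 4.3.3, on log2(level + 1) for limma, and were tested on simulated data. They take the spread from called genes alone, and DESeq2 is the tool behind the calls, so its refit is not independent.

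Every listed gene may be named. Protein-coding genes other than histones get the value of each library, as do, in each of the other classes, the 4 genes with the largest ratio and the 2 with the highest level. Hist1h2bc, Hist3h2a, Snord15a, Snord15b and Mir6516 were added after their values were seen. The members and lists (NuRD, Wdr5 and COMPASS, BMP, LIF with Jak and Socs, imprinted genes, cell type markers) were chosen with earlier results of these data known. Columns were tied to groups, not to replicate numbers. Sequences came from GENCODE M21 and RefSeq.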

Additional observations from a re-analysis of the deposited data

Results flagged for a closer look

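Some listed genes had effects of opposite sign in Mbd3c KO and in another mutant, with both libraries of each mutant on opposite sides of the WT libraries. The difference between mutants was not tested, because they share the WT libraries and each table was normalized separately. The log2 ratio of group means for Bmp4 was -1.94 in Mbd3c KO and 0.52 in Mbd3abc KO. Igfbp4 had 1.58 in Mbd3c KO and -1.64 in Mbd3abc KO. Hist2h2bb had 1.67 in Mbd3c KO and -0.62 in Mbd3abc KO, Hist3h2a had 1.90 in Mbd3c KO and -1.41 in Mbd3abc KO, and Hist1h2ab had 2.08 in Mbd3c KO and -0.57 in Mbd3abc KO. Rpph1 had 2.18 in Mbd3c KO and -0.50 in Mbd3abc KO. Hist3h2bb-ps had 2.65 in Mbd3c KO and -2.05 in Mbd3cΔN-ab KO, where it rests on 6.02 and 1.69 normalized reads in the mutant, against 17.1 and 14.8 in WT.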

How the results depend on the processing

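The 38 calls became 24 at an adjusted p under 0.01 and 7 under 0.001, and 38 were at least 2-fold. Of the genes at or above the median level of the list, 19 were called, a count that the use of the median fixes. Refitted, DESeq2 called 26 (23 higher, 3 lower) and missed 8 of 12 higher protein-coding genes, 1 of 10 histone genes and 2 of 12 non-coding RNAs, while edgeR and limma, with a pseudocount of 1, 0.5 or 5, called 0, with 38 at an unadjusted p under 0.05 in each. These fits use the 38 listed genes alone. Leaving out each library in turn, the DESeq2 refit called 2 to 34 genes: 33 without CA10, 34 without CH9, 5 without E141 (Hist1h4d, Rmrp, Rpph1, Snora23 and Snord17) and 2 without E142 (Hist1h2ac and Snora23). In these fits the lone library is taken to vary as the paired ones do. The log2 ratios kept their sign in all 38 genes with the columns as deposited and with the deposited fold change, so 34 were above 0. They also kept it with a pseudocount of 1 and without each library. Neither of these could change a sign, because the groups overlap in no listed gene. The deposited fold change was nearer to 0 for all 38, with a median shift of -0.42. The groups did not overlap in 38 genes also in the columns as deposited, an alternative chosen after seeing the data. Depth limits Nfam1 most, with 3 and 9 WT reads. Lamb3 had 12 and 29 WT reads, Gzmm 13 and 33, and Hist3h2bb-ps 14 and 19. No paired analysis was possible because the columns of the Mbd3c KO libraries carry no replicate number.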
